A study of Glycine max with 24 samples.

Results

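EXP2, GASA3 and GASA14 are 3 soybean genes of cell growth, of 6029 gene symbols in the annotation, read by 7 of the 37593 soybean probe sets on the array. They were chosen by gene symbol: every probe set whose only symbol in the platform annotation is one of these names was taken, which gave 3 probe sets for EXP2, 1 for GASA3 and 3 for GASA14. The choice of genes used measured values. EXP2 was picked for its low level in infested susceptible leaves on day 7, and GASA3 and GASA14 for theirs on day 1. Every difference that uses those arrays is given for these genes as a description, with no test.

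RNA came from leaves of 2 soybean (Glycine max) cultivars, the aphid-resistant LD05-16060 and the aphid-susceptible SD01-76R, each with and without soybean aphids, sampled after 7 days or 1 day, with 3 arrays in each of the 8 groups. The groups were infested resistant leaves on day 7, uninfested resistant leaves on day 7, infested and uninfested resistant leaves on day 1, and the same 4 groups of susceptible leaves. All plants grew in a chamber at 25 °C with 16 h of light a day, and each plant was netted. Infested plants received 30 aphids, 10 on each leaflet of the third trifoliate, of which at least 21 were adults, and the aphids were taken off before the leaf was sampled. The labels do not state whether a sample pools plants, nor the controls' handling beyond the absence of aphids, and each cultivar is a single line, so a cultivar difference is a difference between these lines.

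Expansins are wall proteins that loosen the bonds between cellulose and the other wall polymers, which lets a turgid plant cell enlarge. GASA proteins are small secreted peptides with a conserved cysteine-rich end. Their founding members were found as transcripts that respond to gibberellin, and members of the family act in cell elongation, cell division and flowering, while their potato relatives, the snakins, are antimicrobial. Both families are large, and expansin transcripts are typically most abundant in young, expanding tissue.

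Levels are log2 intensities after quantile normalization, so that a difference of 1 is 2-fold. Over all values the 5th percentile was 5.28, the median 7.61 and the 95th percentile 11.16. Averaged over the 24 arrays, the leading probe set (the one of highest mean) of EXP2, Gma.7006.1.S1_at, stood at 8.52, that of GASA3, Gma.13018.1.A1_at, at 7.66, and that of GASA14, GmaAffx.90343.1.S1_s_at, at 9.44. No detection call came with the values, and probe sets bind with different strength, so the levels do not rank the 3 genes. A probe set ending in _s_at has probes shared with other transcripts. That holds for the leading probe set of GASA14 and for 1 of EXP2, so their values may include related genes.

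Leaf markers were high, with the photosynthesis gene CAB3 at a mean of 14.73. Of 10 seed markers, 8 lay at 5.24 to 5.64, and the trypsin inhibitor genes KTI-2 and KTI-3 at 10.73 and 9.96. The nodule marker ENOD40B stood at 7.07, and the root markers PRP1 and PRP2 at 5.18 and 10.57. The uninfested susceptible leaves of day 1 lay at one end of the first principal component, which carried 39.6% of the variance, with scores of 109, 69.1 and 75.2, against 66.2 at most in the other 7 groups. In those leaves, for 6 control transcripts, the 3' probe set exceeded the 5' one, a measure of RNA integrity, by an average of 1.31 ± 0.37 (SD, n = 3), against group means of 0.833 to 1.18. Their 9 phloem marker genes, the sucrose transporter SUT1 and 8 genes of the sieve element occlusion (SEO) family, averaged 7.46 ± 0.46, against group means of 6.23 to 6.90. SUT1 did not share that peak, at 9.84 in those leaves against group means of 9.36 to 10.54 elsewhere, so the higher mean is that of the SEO genes. These values sit beside every comparison below that uses that group, and their part in those results was not tested. In whole leaves, fewer cells of a type and less RNA per cell cannot be told apart.

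**Figure D1:**
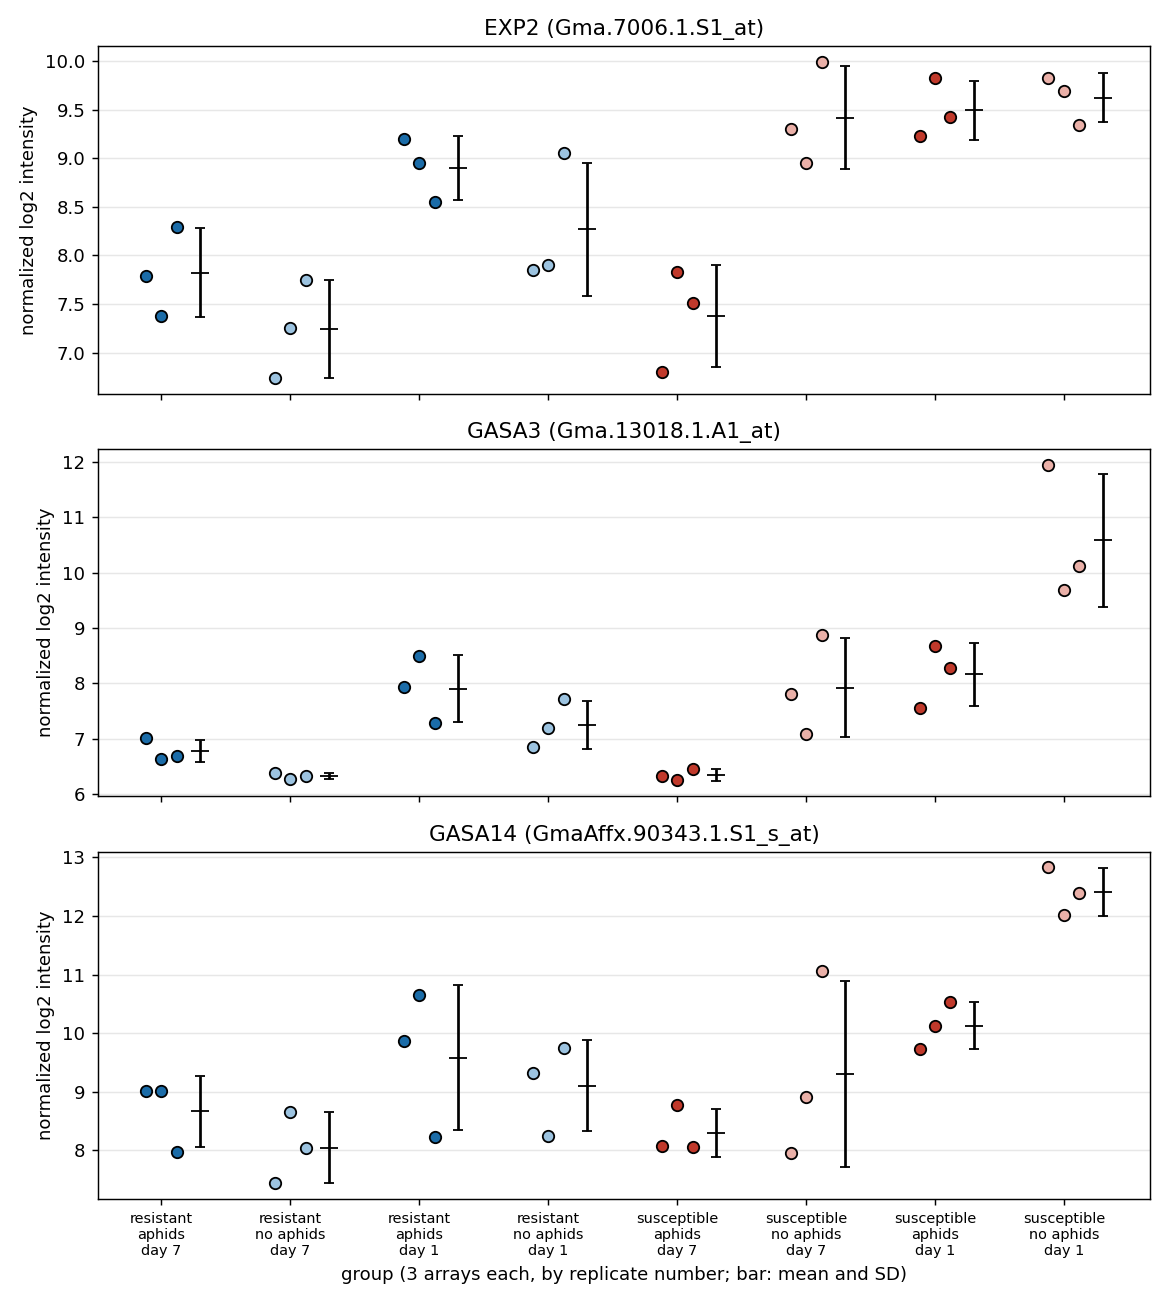
Normalized log2 intensity (vertical axis) of the leading probe set of EXP2, GASA3 and GASA14 in each of the 8 groups (horizontal axis). Points are the 3 arrays by replicate number, and bars show mean and SD. EXP2 lies at 6.80 to 7.83 in infested susceptible leaves of day 7 and at 8.96 or above in the other 3 susceptible groups, while GASA3 and GASA14 peak in uninfested susceptible leaves of day 1.

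EXP2, an expansin gene, was low in both cultivars on day 7 except in uninfested susceptible leaves. On day 7 its levels in infested susceptible leaves were 6.80, 7.83 and 7.51, against 9.31, 8.96 and 9.997 in uninfested ones. The groups did not overlap, and the difference of -2.04 is 4.12-fold. It is the difference by which the gene was chosen, and it was -1.64 on the deposited values without scaling. The other probe sets of EXP2 gave -1.48 (GmaAffx.93176.1.S1_at) and -1.93 (GmaAffx.93176.1.S1_s_at), also with all infested arrays below all uninfested ones, as were 13% of all probe sets in this comparison, of which 0.894% passed the threshold as lower in infested leaves.

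On day 1 EXP2 lay at similar levels in both groups of susceptible leaves. Levels were 9.23, 9.83 and 9.43 in infested leaves, against 9.83, 9.70 and 9.34 in uninfested leaves, and the groups overlapped fully. The difference was -0.13 ± 0.35 (SE, limma, adjusted p = 0.861), with a 95% interval of -0.86 to 0.61. GmaAffx.93176.1.S1_at alone had a positive difference, 0.62 ± 0.28, which did not pass either (limma, adjusted p = 0.173). Among all probe sets 5.01% passed in this comparison.

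In the resistant cultivar the mean EXP2 level was higher with aphids on both days, by less than the test could separate. On day 7 it had levels of 7.79, 7.38 and 8.30 in infested leaves, against 6.74, 7.25 and 7.75 in uninfested leaves. On day 1 the levels were 9.20, 8.96 and 8.55 in infested leaves, against 7.85, 7.90 and 9.06 in uninfested leaves. In both cases the infested mean was the higher one and the groups overlapped. The differences were 0.58 ± 0.35 on day 7 (limma, adjusted p = 1.0, 95% interval -0.16 to 1.31) and 0.63 ± 0.35 on day 1 (limma, adjusted p = 0.699, 95% interval -0.11 to 1.37). The percentage of all probe sets that passed was 0.00266% on day 7, which is 1 probe set, and 0% on day 1, where 2865 had an unadjusted p under 0.05.

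Set side by side, the 2 cultivars' aphid effects on EXP2 on day 7 differed by 2.62 for the leading probe set and by 1.86 and 2.29 for the others, resistant minus susceptible, as a description. On day 1, whose arrays had no part in the choice of EXP2, the same difference of the leading probe set was 0.76 ± 0.50. It did not pass (limma, adjusted p = 0.391), and 0.886% of all probe sets did. GmaAffx.93176.1.S1_at had -0.195 ± 0.39 and GmaAffx.93176.1.S1_s_at had 0.46 ± 0.44, and neither passed (limma, adjusted p = 0.8137 and 0.5655).

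Uninfested leaves of the 2 cultivars differed in EXP2 on day 1. Levels were 7.85, 7.90 and 9.06 in resistant leaves, against 9.83, 9.70 and 9.34 in susceptible leaves, with no overlap. EXP2 was 2.55-fold lower in resistant leaves (-1.35 ± 0.35, limma, adjusted p = 0.0127). GmaAffx.93176.1.S1_s_at was lower as well (-1.22 ± 0.31, limma, adjusted p = 0.0110), and GmaAffx.93176.1.S1_at had -0.72 ± 0.28 and missed the threshold (limma, adjusted p = 0.0761), so 2 of 3 probe sets passed, where 18.7% of all probe sets passed and 9.79% passed as lower. All resistant arrays lay below all susceptible ones for 3 of 3 probe sets of EXP2 and 18.5% of all probe sets. This comparison rests on the susceptible group at the end of the first component, in which 6 of the 9 phloem markers were also higher than in resistant leaves. The call on the leading probe set was lost with the 3' minus 5' value as a covariate (-1.08, limma, adjusted p = 0.151), on the deposited values without scaling (-1.04, adjusted p = 0.0798), and without uninfested susceptible replicate 1 (adjusted p = 0.0685) or uninfested resistant replicate 1 (adjusted p = 0.0742) or 2 (adjusted p = 0.0705). GmaAffx.93176.1.S1_s_at lost its call in the same settings. Its adjusted p (limma) was 0.120 with the covariate and 0.0856 on the deposited values. Without each of those arrays, in the same order, it was 0.0587, 0.0580 and 0.0562. GmaAffx.93176.1.S1_at did not pass with the covariate or on the deposited values (limma, adjusted p = 0.251 and 0.401).

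On day 7 the uninfested cultivars lay further apart in EXP2, 6.74, 7.25 and 7.75 in resistant leaves against 9.31, 8.96 and 9.997 in susceptible leaves, a difference of -2.17 given as a description because the susceptible arrays chose the gene. Infested leaves of day 1 differed less in the leading probe set, with 9.20, 8.96 and 8.55 in resistant leaves against 9.23, 9.83 and 9.43 in susceptible leaves. That difference of -0.60 ± 0.35 did not pass (limma, adjusted p = 0.925), and 0.138% of all probe sets did. GmaAffx.93176.1.S1_at had -0.91 ± 0.28, more than its -0.72 in uninfested leaves of day 1, and GmaAffx.93176.1.S1_s_at had -0.75 ± 0.31. Neither passed (limma, adjusted p = 0.562 and 0.827).

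In the resistant cultivar the mean EXP2 level of day 7 lay below that of day 1. Between the days its leading probe set differed by -1.08 ± 0.35 in infested leaves (day 7 minus day 1, limma, adjusted p = 0.131) and by -1.02 ± 0.35 in uninfested leaves (limma, adjusted p = 0.114), and in both cases all day 7 arrays lay below all day 1 arrays, as did 6.64% of all probe sets in infested and 11.1% in uninfested leaves. For GmaAffx.93176.1.S1_at the days overlapped, with -0.38 ± 0.28 in infested and -0.34 ± 0.28 in uninfested leaves (limma, adjusted p = 0.514 and 0.590). GmaAffx.93176.1.S1_s_at alone passed, in uninfested leaves only (-1.15 ± 0.31, limma, adjusted p = 0.0410). It had 7.19 ± 0.39 on day 7 and 8.33 ± 0.41 on day 1 (SD, n = 3 each), so 1 of 3 EXP2 probe sets fell, where 1.91% of all probe sets passed as lower. That call was lost in 5 of 6 fits without 1 of its arrays, with an adjusted p of 0.201 without day 7 replicate 1, 0.0790 without day 7 replicate 2, and 0.0657, 0.0921 and 0.170 without day 1 replicates 1, 2 and 3. In susceptible leaves, as a description, the day difference of the leading probe set was -2.12 with aphids and -0.20 without them. On the deposited values without scaling these were -1.55 and -0.055. Without aphids GmaAffx.93176.1.S1_at had 0.27 and GmaAffx.93176.1.S1_s_at had -0.38.

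GASA3, a member of the gibberellin-regulated family, ranged over 5.70 log2 units across the 24 arrays. In susceptible leaves on day 1 it had 7.55, 8.68 and 8.27 with aphids, against 11.96, 9.70 and 10.12 without aphids. No infested array reached an uninfested one, as for 15.9% of all probe sets. This difference of -2.42, 5.37-fold, chose the gene and has no test. Replicate 1 of the uninfested group, the array least like the others, was the highest, and without it the difference was -1.74. With the 3' minus 5' value as a covariate it was -1.65.

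On day 7, whose arrays were not used in choosing it, GASA3 lay at 6.33, 6.25 and 6.46 in infested susceptible leaves, against 7.81, 7.09 and 8.87 in uninfested ones. The infested arrays were tightly grouped and all below the uninfested ones, as were 13% of all probe sets. The 2.98-fold difference, -1.58 ± 0.47, missed the threshold (limma, adjusted p = 0.0756, 95% interval -2.56 to -0.59), which 2.84% of all probe sets passed. It did pass with the 3' minus 5' covariate, where it was -2.04 (limma, adjusted p = 0.00347), and 3 other settings also gave an adjusted p under 0.05. Without uninfested replicate 3, the highest array, it was -1.11 (adjusted p = 0.336).

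In resistant leaves the mean GASA3 level was the higher one with aphids on both days, and neither difference passed. On day 7 they were 7.01, 6.63 and 6.70 in infested leaves, against 6.38, 6.27 and 6.33 in uninfested leaves, without overlap, as for 3.24% of all probe sets with the infested arrays on top. The difference of 0.45 ± 0.47 did not pass (limma, adjusted p = 1.0), and the standard error exceeds the spread within these 2 groups because the fit shares 1 spread over all 8. On day 1 GASA3 had 7.94, 8.50 and 7.29 in infested leaves, against 6.86, 7.19 and 7.72 in uninfested leaves, a difference of 0.65 ± 0.47 (limma, adjusted p = 0.765).

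The aphid effect on GASA3 on day 7 was 2.03 ± 0.67 higher in the resistant than in the susceptible cultivar, a difference that did not pass (limma, adjusted p = 0.142, 95% interval 0.64 to 3.42). Of all probe sets 0.676% passed. With the 3' minus 5' covariate the difference was 2.58 and passed (adjusted p = 0.0163).

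Between cultivars, uninfested leaves on day 7 had GASA3 at 6.38, 6.27 and 6.33 in the resistant line, against 7.81, 7.09 and 8.87 in the susceptible line. The groups were separate, as for 10.7% of all probe sets in this direction, and the difference of -1.59 ± 0.47 missed the threshold (limma, adjusted p = 0.0760), which 2.28% of all probe sets passed. Infested leaves on day 7 differed by 0.43 ± 0.47 in the opposite direction (limma, adjusted p = 1.0; 0.16% of all probe sets passed). On day 1 the uninfested cultivars differed by -3.34, 10.1-fold, as a description, and by -2.41 with the 3' minus 5' covariate.

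The GASA3 levels of day 7 lay below those of day 1 in every pairing of like groups. In the resistant line day 7 minus day 1 was -1.13 ± 0.47 with aphids (limma, adjusted p = 0.231; 0.803% of all probe sets passed) and -0.93 ± 0.47 without aphids (limma, adjusted p = 0.320; 3.91% passed). All day 7 arrays lay below all day 1 arrays in both comparisons, as for 6.64% of all probe sets with aphids and 11.1% without, and neither passed. In the susceptible line it was -1.82 with aphids and -2.67 without, as a description.

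GASA14, also of the gibberellin-regulated family, had its highest level in the same group as GASA3. In susceptible leaves on day 1 its leading probe set had 9.73, 10.12 and 10.53 with aphids, against 12.83, 12.01 and 12.40 without aphids. All infested arrays lay below all uninfested ones, as for 15.9% of all probe sets. The difference of -2.29, 4.88-fold, chose the gene and has no test. The other GASA14 probe sets gave -1.23 (Gma.8347.1.S1_at) and -2.40 (GmaAffx.90343.1.S1_at). With the 3' minus 5' covariate the leading probe set gave -1.62.

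On day 7 GASA14 had 8.07, 8.77 and 8.05 in infested susceptible leaves, against 7.96, 8.91 and 11.05 in uninfested ones. The groups overlapped. The difference of -1.01 ± 0.64 did not pass (limma, adjusted p = 0.436) and rested largely on uninfested replicate 3, since it was -0.13 without that array. The remaining GASA14 probe sets had -0.74 and -1.26, and neither passed.

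In resistant leaves on day 7 GASA14 had 9.01, 9.02 and 7.97 with aphids, against 7.44, 8.65 and 8.04 without. On day 1 it had 9.87, 10.64 and 8.22 with aphids, against 9.32, 8.24 and 9.75 without. Both comparisons of this leading probe set overlapped, with differences of 0.62 ± 0.64 on day 7 (limma, adjusted p = 1.0) and 0.48 ± 0.64 on day 1 (limma, adjusted p = 0.906). On day 7 all infested arrays of Gma.8347.1.S1_at lay above all uninfested ones, as for 3.24% of all probe sets. Its difference of 0.58 ± 0.39 did not pass. Without infested replicate 2 of day 1, whose 3' minus 5' value was 1.504, the day 1 difference of the leading probe set was -0.06. Over all fits without 1 array it ran from -0.06 to 1.16. The cultivar difference in the aphid effect on day 7, 1.63 ± 0.90, did not pass (limma, adjusted p = 0.396, 95% interval -0.25 to 3.51).

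Uninfested leaves of the cultivars differed in GASA14 by -3.31 on day 1 (resistant minus susceptible, 9.92-fold), with 9.32, 8.24 and 9.75 in resistant leaves against 12.83, 12.01 and 12.40 in susceptible leaves, as a description. On day 7 they differed by -1.27 ± 0.64 (limma, adjusted p = 0.312), and without susceptible replicate 3 by -0.39. The infested leaves of day 7 differed by 0.37 ± 0.64 (limma, adjusted p = 1.0). In the resistant line day 7 minus day 1 was -0.91 ± 0.64 with aphids and -1.06 ± 0.64 without, and neither passed (limma, adjusted p = 0.497 and 0.422).

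**Figure D2:**
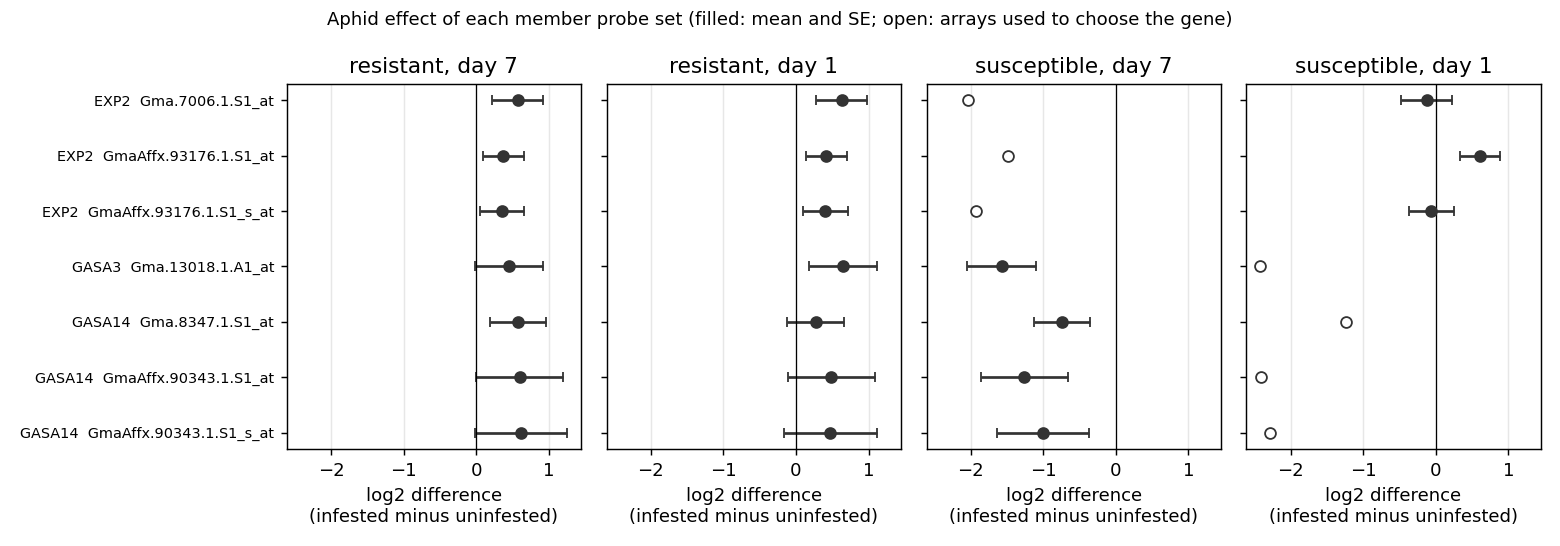
Log2 difference, infested minus uninfested (horizontal axis), of each of the 7 probe sets (vertical axis) in the 2 cultivars on the 2 days. Filled points carry the SE of the limma fit, and open points are differences of the arrays that chose the gene and have none. All 7 lie above 0 in resistant leaves on both days, from 0.27 to 0.65, none past the threshold, and all 7 lie below 0 in susceptible leaves on day 7.

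Over the 7 probe sets, the aphid difference in resistant leaves was above 0 in 7 of 7 on day 7 (median 0.58, against -0.02 over all probe sets) and in 7 of 7 on day 1 (median 0.48, against -0.02). It passed in 0 of 7 on either day. In susceptible leaves on day 7 it was below 0 in 7 of 7 (median -1.48, against -0.03), among them the 3 probe sets of EXP2, which was chosen there. The probe sets of 1 gene read the same RNA, so these are not independent counts. The phloem markers lay on the same side: the aphid difference was above 0 in 8 of 9 in resistant leaves on day 7 (median 0.11) and in 9 of 9 on day 1 (median 0.61), and it was below 0 in 8 of 9 in susceptible leaves on day 7 (median -0.43), with 0 of 9 past the threshold in each. Their part in the differences of the 3 genes was not tested.

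The 3 genes varied together across the arrays. Over the 24 arrays, Pearson's r between leading probe sets was 0.91 for GASA3 and GASA14, 0.80 for EXP2 and GASA3, and 0.74 for EXP2 and GASA14. Taken as deviations from the group means, these were 0.59, 0.51 and 0.46. The arrays share the group structure and the leaf samples, so the values are a description. Probe sets of 1 gene were closer to each other, at 0.88 to 0.98 for EXP2 and 0.98 to 0.99 for GASA14.

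Part of that variation ran within groups. The spread between replicates, as the residual SD of the fit, was 0.47 for EXP2, 0.63 for GASA3 and 0.86 for GASA14, which lie at the 91.1, 96.5 and 99.1 percentiles of all probe sets. High arrays were shared: infested resistant replicate 2 of day 1 had the highest GASA3 (8.50) and GASA14 (10.64) of its group, and uninfested susceptible replicate 3 of day 7 had the highest level of all 3 genes in its group. Those 2 arrays also had the highest phloem marker mean of their groups, at 7.30 and 7.07. Across the 24 arrays GASA3 correlated with the phloem mean at r = 0.90, and at 0.84 within groups. EXP2 did so at 0.80 and 0.65 within groups, and GASA14 at 0.85 and 0.65. The r with the first principal component was higher still, at 0.86 for EXP2, 0.95 for GASA3 and 0.90 for GASA14. The r with the mean of the leaf markers was 0.43, 0.63 and 0.60. With the 3' minus 5' value the r was 0.20 for EXP2, 0.53 for GASA3 and 0.49 for GASA14, and within groups it was 0.28, 0.70 and 0.45. The part of phloem content and of RNA quality in the gene levels was not tested beyond the covariate fits.

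**Figure D3:**
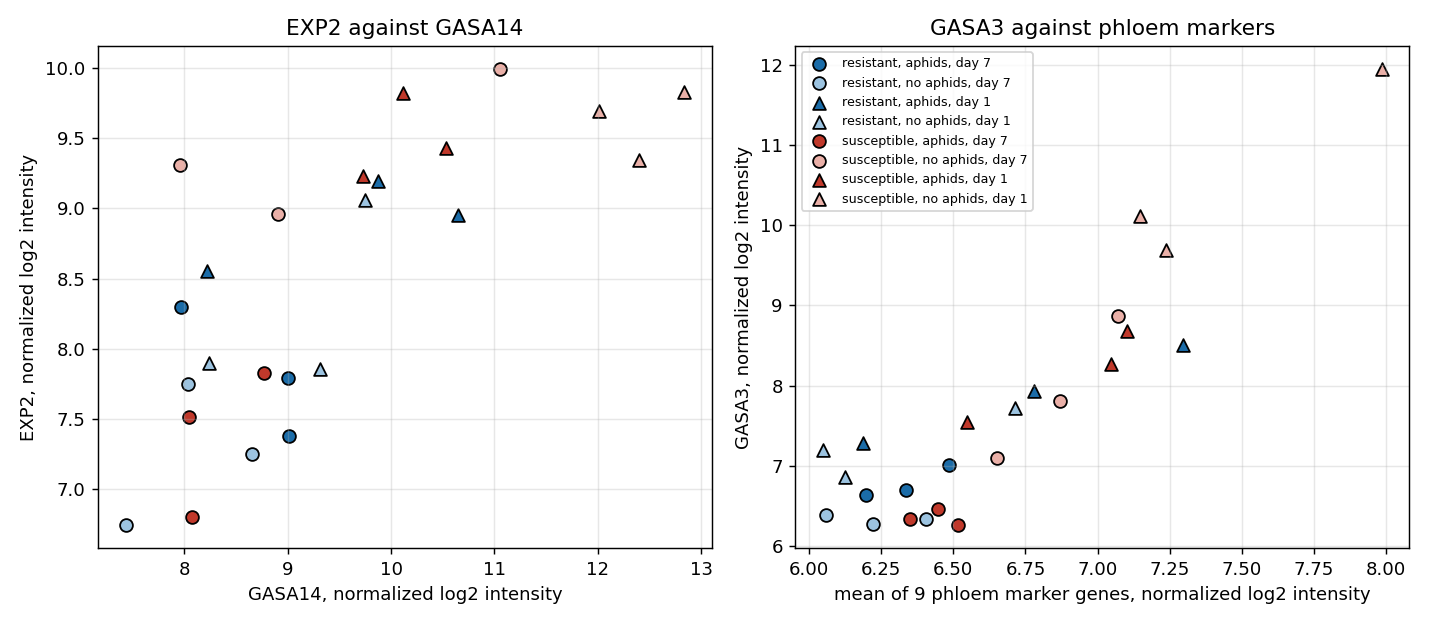
Left, EXP2 against GASA14, and right, GASA3 against the mean of 9 phloem marker genes, all as normalized log2 intensities, with 1 point for each of the 24 arrays. Colour gives cultivar and aphids, and triangles are day 1. The 3 uninfested susceptible arrays of day 1 lie at the upper right of the GASA3 plot, with GASA3 at 9.70 to 11.96 and phloem means of 7.15 to 7.98.

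Ranking the 8 groups by EXP2 gave no step between neighbours whose arrays did not overlap. Uninfested susceptible leaves of day 1 came first at 9.62 ± 0.25, followed by infested ones of day 1 at 9.50 ± 0.30 and uninfested ones of day 7 at 9.42 ± 0.53, and uninfested resistant leaves of day 7 came last at 7.25 ± 0.51 (SD, n = 3 each). Infested susceptible leaves of day 7, at 7.38 ± 0.53, were next to last. For GASA3 the first group, uninfested susceptible leaves of day 1 at 10.59 ± 1.20, stood 2.42 above the second, infested susceptible leaves of day 1 at 8.17 ± 0.57, without overlap. At the low end came infested resistant (6.78 ± 0.20), infested susceptible (6.35 ± 0.10) and uninfested resistant leaves of day 7 (6.33 ± 0.055). The first 2 of these differed by 0.43, which did not pass. For GASA14 the first group, again uninfested susceptible leaves of day 1 at 12.41 ± 0.41, stood 2.29 above infested ones of day 1 at 10.13 ± 0.40, and every later pair of neighbours overlapped.

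Among 1002 other genes with an informative name, those most like EXP2 over the 24 arrays were AG1 (r = 0.91), CYP76O2, a cytochrome P450 (0.90), SSH2 (0.89), the plasma membrane aquaporin PIP2-4 (0.89) and SGF14G, a 14-3-3 protein (0.88). Those most like GASA3 were LRK1 (0.95), CYP53 (0.95), ADR11, first described as repressed by auxin (0.94), and the bZIP factors BZIP50 and BZIP48 (0.93 each). For GASA14 they were its family member GASA11 (0.94), LRK1 (0.93), the aquaporin PIP1-6 (0.92), CYP53 (0.92) and ADR11 (0.91). GASA3 and GASA14 shared 3 of these 5 genes, and EXP2 shared 0 with either. Ranked on deviations from the group means, GASA3 was most like SEOA (0.86) and SEOC (0.86), both of the phloem list, EXP2 most like the aquaporin PIP1-1 (0.83), and GASA14 again like GASA11 (0.83).

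The rest of the GASA family on the array, 14 named genes with 1 probe set each, gave calls in both directions. In susceptible leaves on day 1, 0 rose with aphids, 2 fell and 12 did not pass, with a median of -0.58 against 0.00 over all probe sets. The 2 that fell were GASA32 (-0.66 ± 0.15, limma, adjusted p = 0.0252) and GASA34 (-1.36 ± 0.37, limma, adjusted p = 0.0418), where 3.29% of all probe sets passed as lower. Both calls were lost on the deposited values and with the 3' minus 5' covariate, and each in 4 of 6 fits without 1 array, with an adjusted p of up to 0.205 and 0.254. The GASA32 probe set, GmaAffx.90343.1.A1_at, shares its number with the leading probe set of GASA14. Its values may therefore not be independent of GASA14, which was chosen in this comparison. GASA6 and GASA11, named after their values were seen, had larger differences that did not pass, -3.01 (limma, adjusted p = 0.0742) and -2.78 (limma, adjusted p = 0.0787).

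On day 7 in susceptible leaves 1 GASA gene rose with aphids, 0 fell and 13 did not pass (median -0.11, against -0.03). GASA24 averaged 11.26 with aphids and 9.79 without them, a rise of 1.47 ± 0.30 (limma, adjusted p = 0.0119), where 1.94% of all probe sets passed as higher. In the same leaves the differences of EXP2, GASA3 and GASA14 were below 0. EXP2 was chosen by that difference, and those of GASA3 and GASA14 did not pass. GASA24 passed in 11 of 11 other settings, and its call was lost without infested replicate 1 or uninfested replicate 3 (adjusted p up to 0.0918). In resistant leaves GASA24 averaged 11.29 with aphids and 11.24 without them on day 7. There 0 of the 14 genes passed on either day, as did 0.00266% of all probe sets on day 7 and 0% on day 1.

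In infested susceptible leaves, day 7 against day 1, 3 of the 14 GASA genes rose, 2 fell and 9 did not pass, where 6.69% of all probe sets passed. GASA27 (2.72 ± 0.64, limma, adjusted p = 0.0156), GASA24 (1.40 ± 0.30, limma, adjusted p = 0.00955) and GASA22 (2.76 ± 0.81, limma, adjusted p = 0.0461) rose. GASA9 fell by 3.45 (SE 0.70, limma, adjusted p = 0.00692), a call kept in all 17 alternatives run on it, and GASA13 fell by 1.09 (SE 0.21, limma, adjusted p = 0.00591), a call lost on the deposited values (adjusted p = 0.144). The GASA22 call was lost in 6 of 6 fits without 1 array, that of GASA27 without day 1 replicate 2 (adjusted p = 0.0571) or day 7 replicate 1 (adjusted p = 0.0651), and that of GASA24 without day 1 replicate 2 (adjusted p = 0.0513).

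In uninfested resistant leaves 1 GASA gene rose between the days, GASA27 (2.66 ± 0.64, limma, adjusted p = 0.0228), where 3.91% of all probe sets passed. The GASA27 call was lost in 3 of 6 fits without 1 array, namely day 7 replicates 1 and 2 and day 1 replicate 2 (adjusted p up to 0.147). In uninfested susceptible leaves 0 of the 14 GASA genes rose between the days, 5 fell and 9 did not pass (median -0.54, against 0.02), where 10.5% of all probe sets passed and 5.28% passed as lower. GASA6 fell by 4.56 (SE 0.99, limma, adjusted p = 0.0110) and GASA34 by 1.49 (SE 0.37, limma, adjusted p = 0.0177), and the others were GASA11, GASA32 and GASA9, at -3.57, -0.56 and -2.20. These differences rest on the uninfested susceptible arrays of day 1. All 5 calls were lost with the 3' minus 5' covariate and without replicate 1 of that group, and also without day 7 replicate 2, and that of GASA9 was lost in 6 of 6 fits without 1 array.

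Between uninfested cultivars on day 1, 0 of the 14 GASA genes were higher in the resistant line, 5 were lower and 9 did not pass (median -0.63, against 0.03), where 9.79% of all probe sets were lower. GASA34 (-1.95 ± 0.37, limma, adjusted p = 0.00226) and GASA6 (-4.29 ± 0.99, limma, adjusted p = 0.00663) kept their call in 6 of 6 fits without 1 array, and with the 3' minus 5' covariate GASA34 kept it (adjusted p = 0.0482) and GASA6 lost it (adjusted p = 0.135). GASA32, GASA11 and GASA9 were the others, and all lost the call with that covariate (adjusted p of 0.103, 0.243 and 0.185) and without uninfested susceptible replicate 1. On day 7 GASA24 alone passed, 1.45 ± 0.30 higher in uninfested resistant leaves (limma, adjusted p = 0.0165), where 1.36% of all probe sets passed as higher. It was lost without resistant replicate 1 or susceptible replicate 1 or 3 (adjusted p up to 0.130).

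**Figure D4:**
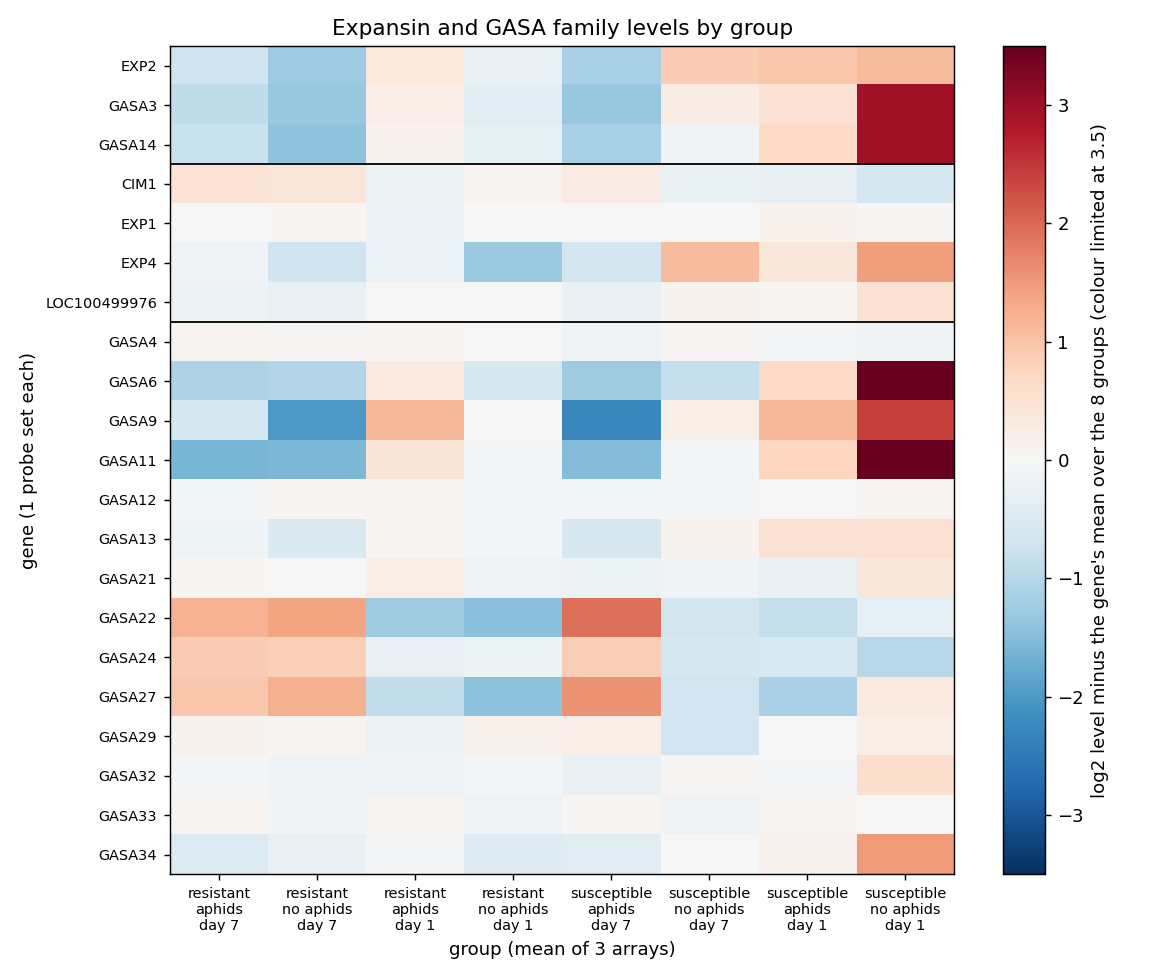
Mean log2 level of 3 arrays in each of the 8 groups (horizontal axis), for EXP2, GASA3 and GASA14, for 4 other expansins and for 14 other GASA genes (vertical axis), as the difference from the gene's own mean over the groups. GASA6, GASA9, GASA11 and GASA34 peak with GASA3 and GASA14 in uninfested susceptible leaves of day 1, whereas GASA22, GASA24 and GASA27 are high on day 7 in both resistant groups and in infested susceptible leaves.

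The 4 other named expansins gave fewer calls. With aphids 0 of 4 passed in either cultivar on either day. Over all probe sets, 5.01% passed in susceptible leaves on day 1 and 2.84% on day 7, against 0% and 0.00266% in resistant leaves. EXP4 averaged 9.37 in infested and 11.12 in uninfested susceptible leaves on day 7, and that difference of -1.75 did not pass (limma, adjusted p = 0.338). Between uninfested cultivars on day 1, 2 of 4 were lower in the resistant line, EXP4 (-2.76 ± 0.92, limma, adjusted p = 0.0421) and LOC100499976 (-0.53 ± 0.18, limma, adjusted p = 0.0417), where 9.79% of all probe sets passed as lower. Both calls were lost with the 3' minus 5' covariate (adjusted p = 0.440 and 0.262) and on the deposited values, and in 5 and 6 of 6 fits without 1 array.

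Other growth genes were read in 4 short lists. Over all probe sets, 5.01% passed for aphids in susceptible leaves on day 1 and 2.84% on day 7. In resistant leaves 0% and 0.00266% did. Between uninfested cultivars on day 1, 18.7% passed, and 9.79% passed as lower. For day 7 against day 1, 10.5% passed in uninfested and 6.69% in infested susceptible leaves, and 3.91% in uninfested resistant leaves. Of 5 genes of gibberellin synthesis and signalling, 0 passed for aphids in any of the 4 comparisons. The DELLA repressor gene GAI2 was lower in uninfested resistant than susceptible leaves on day 1 (-0.72 ± 0.19, limma, adjusted p = 0.0144) and lower on day 7 than on day 1 in uninfested susceptible leaves (-0.72 ± 0.19, limma, adjusted p = 0.0238), and both calls were lost with the 3' minus 5' covariate and without susceptible replicate 1 of day 1, among others. Of 5 wall genes, 0 passed for aphids. XTH1, a xyloglucan-modifying enzyme gene, was lower in resistant leaves in that cultivar comparison (-2.69 ± 0.57, limma, adjusted p = 0.00391), in 6 of 6 fits without 1 array though not with the covariate (adjusted p = 0.0697). XET1, of the same enzyme family, was lower on day 7 than on day 1 in uninfested resistant leaves (-2.20 ± 0.55, limma, adjusted p = 0.0271) and in infested susceptible leaves (-2.14 ± 0.55, limma, adjusted p = 0.0241), calls lost in 5 and 4 of 6 fits without 1 array. In those susceptible leaves the proline-rich wall protein genes PRP2 (1.34 ± 0.39, limma, adjusted p = 0.0458) and PRP3 (0.40 ± 0.11, limma, adjusted p = 0.0362; -0.075 under median centring) were higher on day 7, and both calls were lost in 6 of 6 fits without 1 array.

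Of 4 auxin growth genes, ADR11 fell with aphids in susceptible leaves on day 1 (-3.18 ± 0.57, limma, adjusted p = 0.0136; 0.0673 with the covariate, and up to 0.111 without infested or uninfested replicate 1) and was lower in uninfested resistant than susceptible leaves on day 1 (-3.97 ± 0.57, limma, adjusted p = 0.00044), a call kept in all 17 alternatives run on it. Between the days it fell by 3.63 in uninfested susceptible leaves (SE 0.57, limma, adjusted p = 0.00283). The cultivars differed in its aphid effect on day 1, by 3.96 ± 0.80 (resistant minus susceptible, limma, adjusted p = 0.0422), where 0.886% of all probe sets passed. That call was lost in 7 of 12 fits without 1 array (adjusted p up to 0.132) and kept in 5 of 11 other settings. It was lost on the deposited values (limma, adjusted p = 0.0749) and with the covariate (limma, adjusted p = 0.352), among others. AUX22 was lower in uninfested resistant than susceptible leaves on day 1 (-0.81 ± 0.24, limma, adjusted p = 0.0230) and lower on day 7 than on day 1 in uninfested susceptible leaves (-0.82 ± 0.24, limma, adjusted p = 0.0346), and both calls were lost on the deposited values, with the covariate and without uninfested susceptible replicate 1 of day 1, among others.

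Of 4 genes of cell division, a histone and 3 tubulins, H4 was the one that passed for aphids, in a comparison where 5.01% of all probe sets passed. It averaged 10.73 in infested and 8.39 in uninfested susceptible leaves on day 1, a rise of 2.34 ± 0.62 (limma, adjusted p = 0.0378). Against the same uninfested susceptible leaves of day 1 it was also higher in uninfested resistant leaves (1.87 ± 0.62, limma, adjusted p = 0.0404) and in uninfested susceptible leaves of day 7 (2.09 ± 0.62, limma, adjusted p = 0.0373). All 3 calls were lost with the covariate, and in 5, 4 and 4 of 6 fits without 1 array. TUBB3 was lower in uninfested resistant than susceptible leaves on day 1 (-1.22 ± 0.27, limma, adjusted p = 0.00558), in 6 of 6 fits without 1 array though not with the covariate (adjusted p = 0.108) or on the deposited values (adjusted p = 0.0837).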

How the data were processed

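Per the labels, biotin-labelled total RNA was hybridised to 1-colour Affymetrix soybean arrays. The authors deposited log2 intensities per probe set for 24 arrays, 37593 soybean and 60 control probe sets. The submitters' processing notes name RMA, GCRMA and limma without role or version. The values are not the usual output of RMA or GCRMA, since 99.61% are whole on the linear scale within 0.01 and array medians run from 7.00 to 8.04, and the sources used here do not say how probes were summarised. No background estimate came with them, so dim levels may be compressed. No 2 arrays were identical (0 pairs), and no label gives a batch.

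The soybean probe sets were quantile-normalized (limma 3.58.1, R 4.3.3), 8 group means were fitted over all arrays with moderated variance (prior degrees of freedom 3.65), and p-values were adjusted by Benjamini-Hochberg over all probe sets contrast by contrast (14 in all) at a threshold of 0.05. Called, passed, rose and fell refer to it. The fit was run on simulated data with large shifts in brighter probe sets and independent noise. That run does not cover smaller differences, dimmer probe sets or effects shared by a whole array. Nothing says that replicates were separate plants, so p-values reflect array-to-array spread that may be technical. The number of arrays limits precision.

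Genes were named through the platform annotation, in which 8677 soybean probe sets have 1 symbol, 370 several and 28546 are not listed; all 3 genes matched RefSeq (Glycine_max_v4.0). Members and gene lists were chosen with earlier results of these data known. Named are all members, the 5 named genes of highest correlation with each, and from each list up to 2 called genes above and 2 below 0 of smallest p; others, such as GASA11, GASA32 and GASA22 beyond those 2, were named after their values were seen. Alternatives were no scaling, median centring, normexp background with an offset of 50, array weights, only probe sets with a mean over 7.62, control probe sets kept in, a variance fitted with a robust trend, the replicate number as a block, averaging a gene's probe sets, fitting only the groups compared, a covariate from the 3' minus 5' signal, leaving out each array, and, chosen after seeing the data, leaving out the 3 arrays least like the others.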

Additional observations from a re-analysis of the deposited data

Results flagged for a closer look

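GASA3 on day 7 was singled out for the size of the difference between the cultivars in its aphid effect. Its 3 infested arrays lay above all uninfested arrays in resistant leaves, as for 3.24% of all probe sets. In susceptible leaves they lay below them all, as for 13%. The cultivar difference in the aphid effect was 2.03 ± 0.67 (SE, resistant minus susceptible, n = 3 arrays a group) and did not pass (limma, adjusted p = 0.142). Over its alternatives the adjusted p ran from 0.0163 to 0.309.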

How the results depend on the processing

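No member result changed direction while called. For the leading probe set, the EXP2 difference between uninfested cultivars on day 1 lost its call on the deposited values (-1.04), with the 3' minus 5' covariate (-1.08) and without the 3 least alike arrays (-1.25), and ran from -1.75 to -1.15 when each array was left out. The GASA3 aphid difference in susceptible leaves on day 7 gained a call with array weights (-1.47), the covariate (-2.04) and without the 3 least alike arrays (-1.58), with -1.995 to -1.11 on leaving out each array. The GASA3 difference between uninfested cultivars on day 7 gained one with array weights (-1.54) and the covariate (-1.59), with -2.01 to -1.12, and its day 7 cultivar difference in the aphid effect did with the covariate (2.58), with 1.56 to 2.45. GASA14 in susceptible leaves on day 1 moved to -1.62 with the covariate. PRP3, a wall protein gene in the lists, differed by 0.40 between days in infested susceptible leaves (called higher) and by -0.075 under median centring. The causes were not tested.

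Calls over all probe sets moved more. In susceptible leaves they were 1883 on day 1 (11 with the covariate, 4857 with array weights) and 1067 on day 7 (775 above the median mean, 2660 with array weights); in resistant leaves they were 1 on day 7 (0 to 8) and 0 on day 1 in every setting run. Between uninfested cultivars they were 7027 on day 1 (1024 with the covariate, 11448 with array weights) and 856 on day 7 (146 to 2349); between infested ones, 60 on day 7 (16 to 206) and 52 on day 1 (22 to 69). Day 7 against day 1 gave 302 in infested (0 to 744) and 1469 in uninfested resistant leaves (710 to 4595), and 2515 in infested (2075 to 11461) and 3946 in uninfested susceptible leaves (10 to 7019). The cultivar difference in the aphid effect gave 254 on day 7 (0 to 880) and 333 on day 1 (0 to 2173). Without scaling, the median over all probe sets was 0.26 higher in infested than uninfested susceptible leaves on day 7 and 0.48 higher in infested susceptible leaves on day 7 than on day 1.

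The labels do not say whether replicate numbers pair the samples. Deviations of same-numbered arrays correlated at a mean of 0.079 over 84 pairs (-0.50 to 0.46), and of others at -0.039 over 168 pairs (-0.54 to 0.59). These values cannot decide whether the numbers mark a shared day or batch. The replicate block gave EXP2 -1.35 (limma, adjusted p = 0.0108) between uninfested cultivars on day 1. There GmaAffx.93176.1.S1_at of EXP2 gained a call (-0.72, adjusted p = 0.0492, against 0.0761 without the block), so that 3 of 3 EXP2 probe sets passed; the block changed no other member's call. Dim probe sets lack a background estimate, and 3 arrays a group leave SEs of 0.35 to 0.64 on the leading probe sets.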
